A study of Homo sapiens with 34 samples.

Results

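The nuclear oxidative phosphorylation (OXPHOS) genes were taken from GENCODE 44 as the protein-coding genes whose symbols begin with NDUFA, NDUFB, NDUFC, NDUFS, NDUFV, UQCR, COX4I, COX5, COX6, COX7, COX8, ATP5F1, ATP5M or ATP5P. They numbered 93 of 19962 protein-coding genes on chromosomes 1 to 22 and X. By role they comprised 37 subunits and 8 assembly factors of complex I, 9 subunits of complex III, 19 of complex IV and 17 of complex V. A pair of readthrough genes (NDUFC2-KCTD14 and ATP5MF-PTCD1) and ATP5MGL, a retrogene of ATP5MG, completed the set.

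Oxidative phosphorylation takes place in the inner mitochondrial membrane. Complexes I, III and IV pass electrons from NADH to oxygen and pump protons, and complex V, the ATP synthase, uses the proton gradient to make ATP. Most subunits are encoded in the nucleus, many of them by housekeeping genes with CpG-rich promoters, and promoters of this class are known for motifs of NRF1, ETS factors such as GABP, YY1 and SP1.

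Chromatin immunoprecipitation and sequencing (ChIP-seq) had been performed for RBPJ and SOX2 in MB157, a cell line of triple-negative breast cancer (TNBC) that depends on NOTCH, and in MB157R, its derivative resistant to a γ-secretase inhibitor (GSI). RBPJ is the DNA-binding protein on which the NOTCH intracellular domain acts, and SOX2 is a DNA-binding factor known from stem cells. MB157R had been obtained by keeping MB157 in 1 µM GSI for 25 weeks. MB157 carried an empty doxycycline-inducible vector (iEV) or one for HA-tagged SOX2 (iSOX2), and MB157R an empty vector or one for N1-ICD (iN1-ICD), a NOTCH1 without its extracellular part. The vectors had been brought in by lentivirus. All cells, the empty-vector controls included, received 1 µg/ml doxycycline for 72 h. RBPJ was precipitated in all 4 settings, SOX2 in both MB157R settings, and the HA tag in MB157 iSOX2 and, as a control without the tag, in MB157 iEV.

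There were 34 libraries, namely 22 immunoprecipitations and 12 inputs, and 8 peak lists. Each list had been called on 3 pooled libraries, or on 1 for the HA control, so that no list had replicates, the differences below have no replicate error beside them and no test was made. The labels do not say whether the pooled libraries came from separate cultures. Between 25243 and 46601 RBPJ peaks were on these chromosomes in each list, with 37963 for SOX2 in MB157R iEV, 108203 for HA-SOX2, 323 for SOX2 in MB157R iN1-ICD and 77 for the HA control. The depth, written as the fragments expected at any position of the genome, was 1.60 to 2.24 for the lists of 3 libraries and 0.524 for the HA control. ChIP-seq locates proteins and does not measure transcripts, so the cell type could not be read from it. RBPJ summits lay at 1 to 4 of 6 basal breast marker genes per list and at 2 to 5 of 8 luminal ones, and at 0 of 6 liver and 0 of 6 muscle marker genes in every list. They lay at 1 of 6 blood cell marker genes in each list. Of all protein-coding genes 38% to 56.1% had an RBPJ summit, depending on the list.

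Below, a promoter summit is a peak summit within 1 kb of the transcription start site (TSS), here the 5′ end of the GENCODE gene record. Where several lay in this window, the one with the highest fold was used. Fold is the enrichment of fragments at the summit over the local background expected from the input. With the p-value of the peak it gives back the whole number of fragments at the summit. Intervals on fragments are 95% Poisson intervals and cover counting error only. For RBPJ in MB157R iEV, the farthest member inside the window by its nearest summit was COX6B2 (812 bp) and the nearest outside was NDUFC1 (1060 bp).

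The sites with the RBPJ word GTGGGAA are shown first, because UQCRC2, with the highest RBPJ fold in both MB157 lists, and several members called in all 4 lists had their summits on them. Other high members, such as NDUFA12, had no such word at the summit. A summit window of 101 bases held this word (on either strand) in at least 3 of the 4 RBPJ lists at 6 OXPHOS genes. The bases are those of hg38 on the strand of the gene, with the word or its reverse complement TTCCCAC in capitals.

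UQCRC2, chr16:21953310-21953338, plus strand: acgaaggggacGTGGGAAagtgttagcgg
ATP5MC1, chr17:48892301-48892329, plus strand: aaacctccacgGTGGGAAttactgcaaag
NDUFA2, chr5:140647823-140647851, minus strand: cgacaagctctTTCCCACagtgcacctca
NDUFAF4, chr6:96897828-96897856, minus strand: ctgcgccggtgTTCCCACgtgcggcctga
ATP5PO, chr21:33915784-33915812, minus strand: gcgtttctctcTTCCCACtcgggtttgac
NDUFS3, chr11:47565326-47565354, plus strand: ggggcctcagtTTCCCACgctacagggct

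The UQCRC2 word began 33 bp after the TSS, in an untranslated exon, and the 4 RBPJ summits lay 6, 1, 11 and 7 bp from its middle (in MB157 with iEV and iSOX2, then MB157R with iEV and iN1-ICD, the order used throughout). The ATP5MC1 word lay between genes, at −453 bp from the TSS, with the summits 0, 14, 18 and 27 bp away. The NDUFA2 word lay at −69 bp from its TSS and inside an untranslated exon of its neighbor IK. The word listed for NDUFS3 lay in an untranslated exon of CELF1 and near the start of PTPMT1, and is considered again with the record starts.

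The SOX words ACAATG and ACAAAG lay under SOX2 or HA-SOX2 summits of 3 genes that were among the highest of those lists. They are shown in the same way, with the word or its reverse complement in capitals.

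NDUFB4, chr3:120596299-120596326, plus strand: ggtcagcatagACAAAGggcctcagaat
COX5A, chr15:74938731-74938758, minus strand: tattttatgccACAATGagaaggcgggg
NDUFS5, chr1:39026750-39026777, plus strand: acgctgcgctcCATTGTcccccaaacat

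At NDUFB4 the word was at −18 bp from the TSS and 6 bp from the SOX2 summit. At COX5A it was at −664 bp, between genes and 37 bp from the HA-SOX2 summit. At NDUFS5 it lay in an intron, 16 bp from the SOX2 summit.

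At 80 of the 93 OXPHOS promoters RBPJ was called in at least 1 list, and at 35 in all 4. The 35 are 37.6% of the set, against 25.7% of all protein-coding genes, and 13 members had no RBPJ summit in any list, against 34.9%. Among the 13, 6 were genes of complex IV, namely COX4I1, COX4I2, COX7A2, COX7A2L, COX7B2 and COX8C. Complex IV has 19 genes in the set, and 6 of 19 is not above the 34.9% of all genes. By list, RBPJ summits lay at 49 members in MB157 iEV (52.7%, against 38% of all genes), 65 in MB157 iSOX2 (69.9%, against 50.4%), 68 in MB157R iEV (73.1%, against 56.1%) and 58 in MB157R iN1-ICD (62.4%, against 43%). The members were thus called more often than genes at large in each list.

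The promoters of the set were richer in CpG than those of genes at large, and CpG-rich promoters were called more often. Of the members, 71 (76.3%) had a CpG-rich promoter, against 58.0% of all genes. Among all genes with such a promoter, RBPJ was called at 55.3%, 73.4%, 80.3% and 61.3% in the 4 lists. Of the 71 members RBPJ was called at 43, 59, 62 and 52, which are 60.6%, 83.1%, 87.3% and 73.2%. Of the other 22 members it was called at 6 (27.3%) in every list, against 14%, 18.5%, 22.7% and 17.7% of all genes without a CpG-rich promoter. The readthrough genes NDUFC2-KCTD14 and ATP5MF-PTCD1 shared their RBPJ summits with NDUFC2 and ATP5MF and were no separate observations. The bar chart of shares by list shows the members beside both backgrounds.

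**Figure D1:**
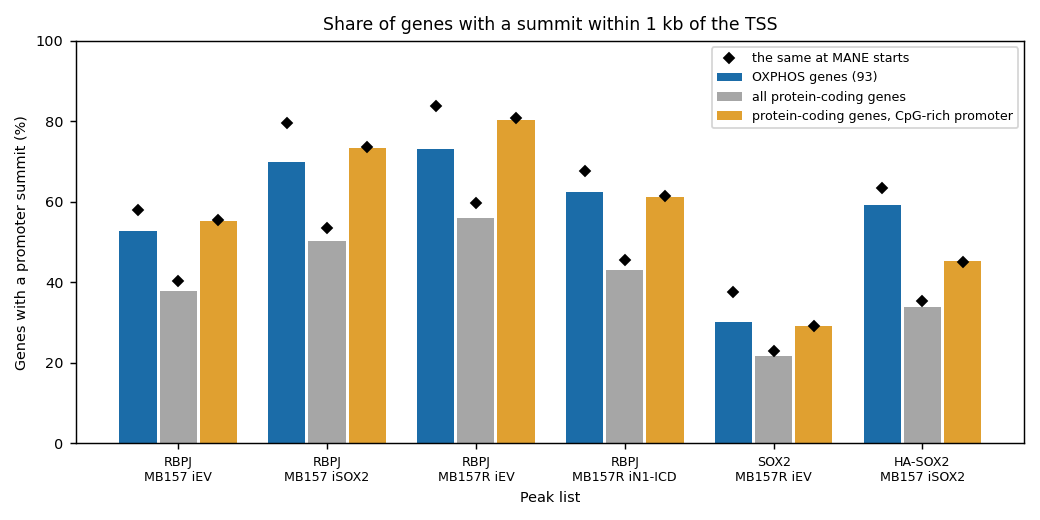
Percentage of genes with a promoter summit (y axis) in 6 peak lists (x axis), for the 93 OXPHOS genes, all 19962 protein-coding genes and those with a CpG-rich promoter. Bars use the start of the gene record and diamonds the start of the MANE Select transcript; in MB157R iEV the RBPJ bar of the members stands at 73.1% and that of all genes at 56.1%.

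With every RBPJ list cut to the 25243 peaks of highest −log10 q, the length of the shortest, RBPJ was called at 49, 54, 50 and 43 members (52.7%, 58.1%, 53.8% and 46.2%, against 38%, 43%, 42.2% and 32.2% of all genes).

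In strength the members did not stand out among called genes. Their median RBPJ fold was 4.86, 4.78, 6.16 and 5.22, at the 42.5th, 46.8th, 46.4th and 51.8th percentile of the protein-coding genes called in the same list. The median distance of their summits from the start was 164, 238, 132.5 and 152.5 bp, against 294, 285, 205 and 242 bp for all called genes.

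**Figure D2:**
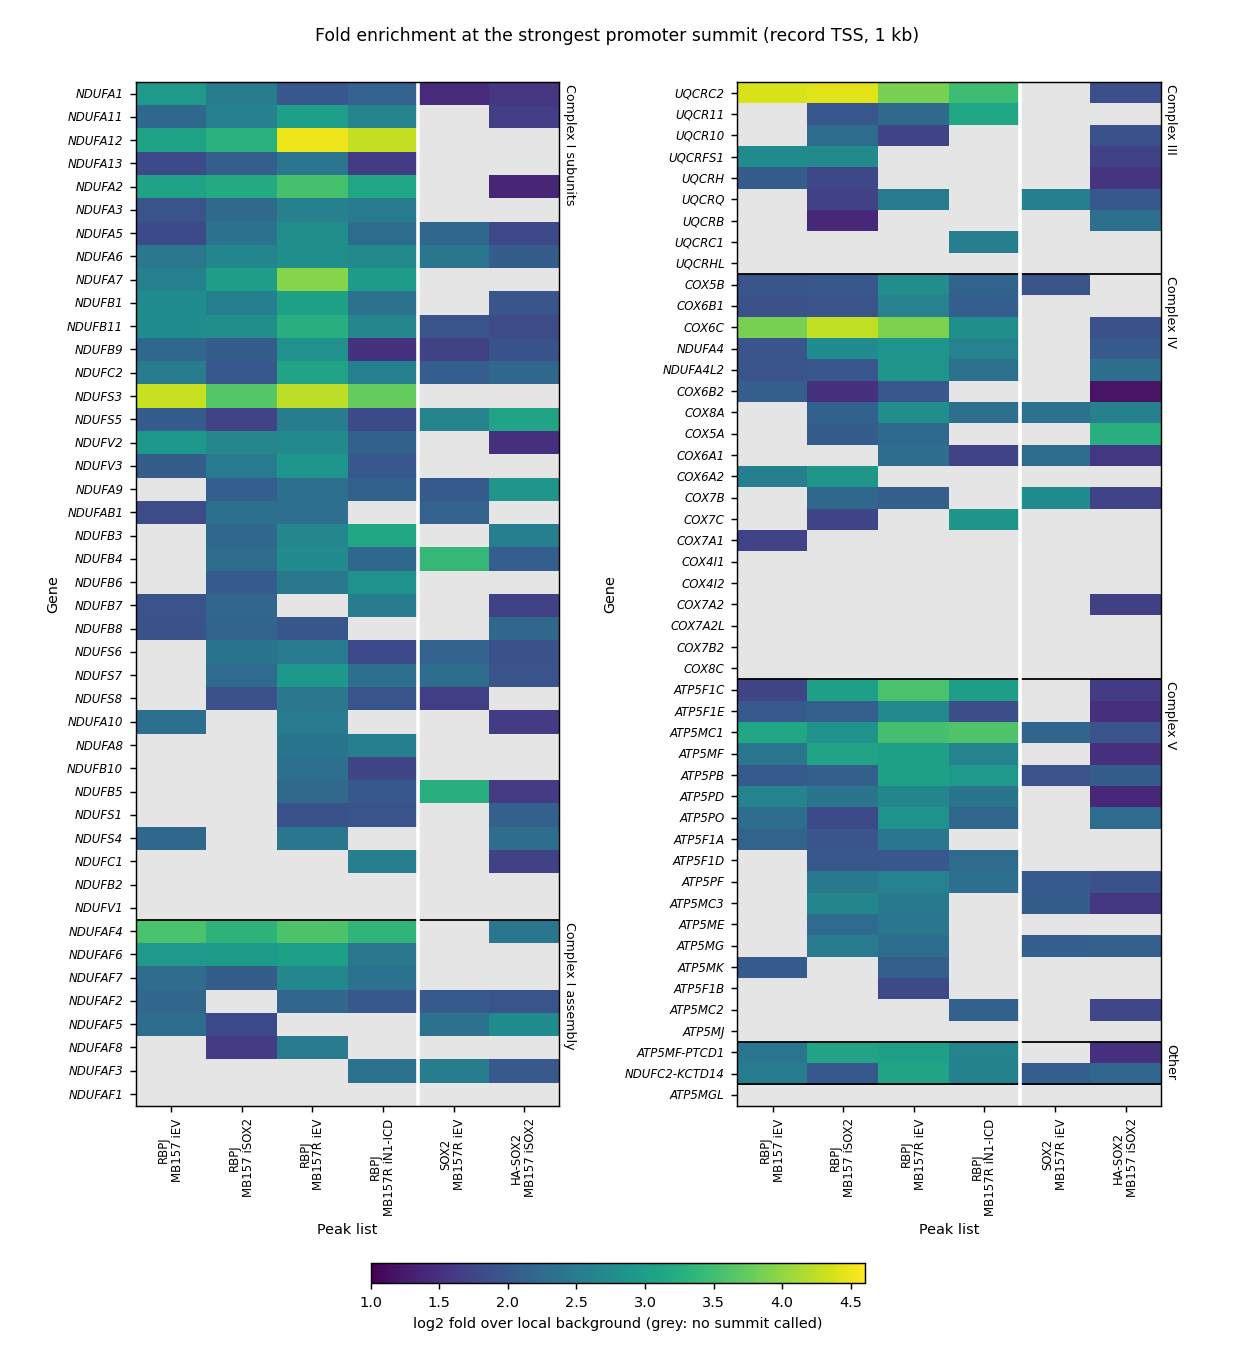
Log2 fold at the strongest promoter summit of the OXPHOS genes shown (rows, by complex) in 4 RBPJ lists, the SOX2 list of MB157R iEV and the HA-SOX2 list (columns); grey marks a gene with no summit called within 1 kb. UQCRC2, COX6C, NDUFAF4, NDUFA12 and the record start of NDUFS3 carry high RBPJ fold in several lists. Of the 19 complex IV genes 6 have no RBPJ summit, a share not above the 34.9% of all genes.

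Complex I takes electrons from NADH. Of its 37 subunit genes, 22, 27, 32 and 30 had an RBPJ summit in the 4 lists, and 17 in all of them. The shares to set beside this and the counts by complex below are 38%, 50.4%, 56.1% and 43% of all genes. For all 4 lists together the share of all genes is 25.7%. Of genes with a CpG-rich promoter 55.3%, 73.4%, 80.3% and 61.3% were called. The highest value of the set in MB157R belonged to NDUFA12, an accessory subunit, whose fold was 8.48, 9.89, 22.7 and 19.3. These rested on 34, 49, 64 and 54 fragments (95% intervals 23.5 to 47.5, 36.3 to 64.8, 49.3 to 81.7 and 40.6 to 70.5). The local background there was 3.13 and 4.06 fragments in the MB157 lists and 1.87 and 1.86 in the MB157R lists, so that the fold differed more between the lines than the fragments did. The part of the background in this difference was not tested.

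The NDUFA12 summits lay between −25 and 24 bp from the TSS. In MB157R iEV the 101 bases around the summit had no GTGGGAA but an NRF1 core, TGCGCA (in capitals).

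NDUFA12, chr12:95003723-95003823, minus strand: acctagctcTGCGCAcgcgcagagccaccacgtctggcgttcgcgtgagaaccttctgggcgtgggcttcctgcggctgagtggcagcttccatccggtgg

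NDUFA7 and NDUFA2, also accessory subunits, were among the other high members, and NDUFS3 is described with the record starts. NDUFA7 had a fold of 6.0, 8.12, 15.5 and 7.77, the highest in MB157R iEV. Its TSS is shared within 4 bp with a second annotated protein-coding gene, from which it could not be told apart. The bases around its MB157 iEV summit overlap the records of RPS28 and of an unnamed gene besides its own. NDUFA2 had 8.46, 9.16, 11.7 and 8.72. NDUFA1, an X-linked accessory subunit, went the other way with 7.68, 5.69, 3.93 and 4.36. Its fragments were 20, 29, 17 and 13, and its local background was 1.74 fragments in MB157 iEV and 3.58 in MB157R iEV.

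Of the 8 complex I assembly factors, which build the complex but are not part of it, RBPJ was called at 5 in each list. NDUFAF4 was the strongest and the most even, with a fold of 11.8, 10.0, 12.1 and 10.2 (33, 40, 39 and 27 fragments). NDUFAF5 was called in MB157 only (4.93 and 3.51), and NDUFAF3 only in MB157R iN1-ICD (5.08). No RBPJ summit lay at the record start of NDUFAF1.

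Complex III takes electrons from ubiquinol. Of its 9 subunit genes, 3, 7, 4 and 3 had an RBPJ summit, and UQCRC2 alone had it in all 4 lists at the record starts. At MANE starts UQCRC1 also had it in all 4 (4.61, 5.27, 8.86 and 5.81). UQCRC2, a core subunit, had the highest RBPJ fold of the set in both MB157 lists, with 20.8, 21.6, 14.6 and 11.1. The fragments were 69, 100, 62 and 33 (intervals 53.7 to 87.3, 81.4 to 121.6, 47.5 to 79.5 and 22.7 to 46.3). In MB157 iEV it ranked number 101 of 7578 genes called. UQCRFS1, the Rieske iron-sulfur protein, and UQCRH, the hinge subunit, were called in MB157 iEV and iSOX2 (6.75 and 6.59, and 4.17 and 3.43) and in neither MB157R list. UQCRQ and UQCR10 were called in MB157 iSOX2 and MB157R iEV.

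In complex IV, which reduces oxygen, RBPJ was called at 8, 11, 10 and 8 of 19 subunit genes and at 5 in all lists. COX6C was the highest, with a fold of 14.6, 19.0, 14.9 and 6.90. Its fragments were 76, 133, 41 and 18 over a local background of 4.29, 6.04, 1.82 and 1.75, so the fold was alike in the iEV cells of both lines on different numbers of fragments. COX7C was called in MB157 iSOX2 (3.37) and MB157R iN1-ICD (7.26).

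In complex V, RBPJ was called at 9, 13, 15 and 10 of 17 subunit genes and at 7 in all lists. ATP5MC1, a gene for subunit c of the rotor, had a fold of 8.83, 7.17, 11.6 and 12.2. The 101 bases around its MB157R iEV summit lie between genes and are shown because the GTGGGAA in capitals was under every RBPJ summit of the gene.

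ATP5MC1, chr17:48892283-48892383, plus strand: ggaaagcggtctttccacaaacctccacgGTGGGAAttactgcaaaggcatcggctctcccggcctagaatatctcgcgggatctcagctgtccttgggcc

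ATP5F1C, the γ subunit of the central stalk, had a fold of 3.37, 8.21, 11.8 and 7.98 (16, 30, 41 and 27 fragments). MB157 iEV was the low list of the 4, and its local background, 4.05 fragments, was the highest against 2.51 to 2.78. ATP5F1B, the catalytic β subunit, was called only in MB157R iEV (3.47).

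Some subunits of complex IV have isoforms restricted to certain tissues, which served as a contrast to their ubiquitous partners. An RBPJ summit lay at 4, 3, 2 and 1 of the 7 restricted isoforms and at 2, 4, 5 and 4 of the 7 partners. At MANE starts it lay at 3, 2, 1 and 0 of the isoforms and at 2, 5, 6 and 4 of the partners. Of all genes 38%, 50.4%, 56.1% and 43% had one at record starts. COX4I2, known from lung and hypoxia, and COX7B2 and COX8C, known from testis, had no RBPJ summit in any list. The muscle isoforms COX6A2 (5.90 and 7.51) and COX7A1 (3.30 in iEV alone) were called in MB157 only. The COX6A2 summits lay 848 and 746 bp downstream of the TSS. COX6B2, known from testis, had 4.28, 2.86 and 3.94 and no summit in MB157R iN1-ICD. Of the partners, NDUFA4 (3.87, 6.71, 7.40 and 6.05) and COX6B1 (3.70, 3.80, 6.02 and 4.20) were called in all 4 lists. COX8A was called in the last 3 (4.35, 6.82 and 5.04).

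The start of the gene record is not always the main start. For 17 members it lay over 1 kb from the start of the MANE Select transcript, the agreed reference transcript of a gene, as it did for 16.6% of all genes. At MANE starts, a choice made after the data had been seen, RBPJ was called at 54, 74, 78 and 63 members, against 40.3%, 53.6%, 59.7% and 45.6% of all genes. All 4 lists held 40 members (43.0%, against 27.7%) and no list held 6 (6.45%, against 31.5%). These 6 were UQCRHL, a retrogene of UQCRH, ATP5MGL, and the restricted isoforms COX4I2, COX7B2, COX8C and NDUFA4L2. Of the 19 complex IV genes 4 (21.1%) were thus in no list at MANE starts. None of the 6 had a CpG-rich promoter. RBPJ was called in at least 1 list at every one of the 79 members with such a promoter at the MANE start. Of the 79, 38 (48.1%) were called in all 4 lists. Of all genes with a CpG-rich promoter at the MANE start, 39.4% were called in all 4 lists and 9.77% in none.

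Named genes changed with this choice. ATP5MJ, a small subunit of complex V, had no summit at its record start and 11.4, 14.4, 15.5 and 10.3 at its MANE start. ATP5F1A, the catalytic α subunit, had 4.42, 3.85 and 5.31 at a record start that lies 44 bp from the start of HAUS1, and 12.7, 10.7, 14.2 and 7.37 at its MANE start. NDUFB2 went from none to 7.29, 6.67, 12.4 and 9.27. NDUFS3, a core subunit of complex I, went the other way. Its record start, 94 bp from the start of PTPMT1 and 13738 bp from its own MANE start, had a fold of 19.6, 12.6, 19.0 and 13.4, and its MANE start had 3.73, 2.84, 4.11 and 3.79. The large values listed for NDUFS3 are therefore those of the PTPMT1 and CELF1 region. NDUFA4L2, a hypoxia-induced paralog of NDUFA4, had 3.81, 3.95, 7.44 and 5.08 at its record start and none at its MANE start. COX4I1, the ubiquitous partner of COX4I2, had none at its record start and 3.09 in MB157 iSOX2 alone at its MANE start.

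**Figure D3:**
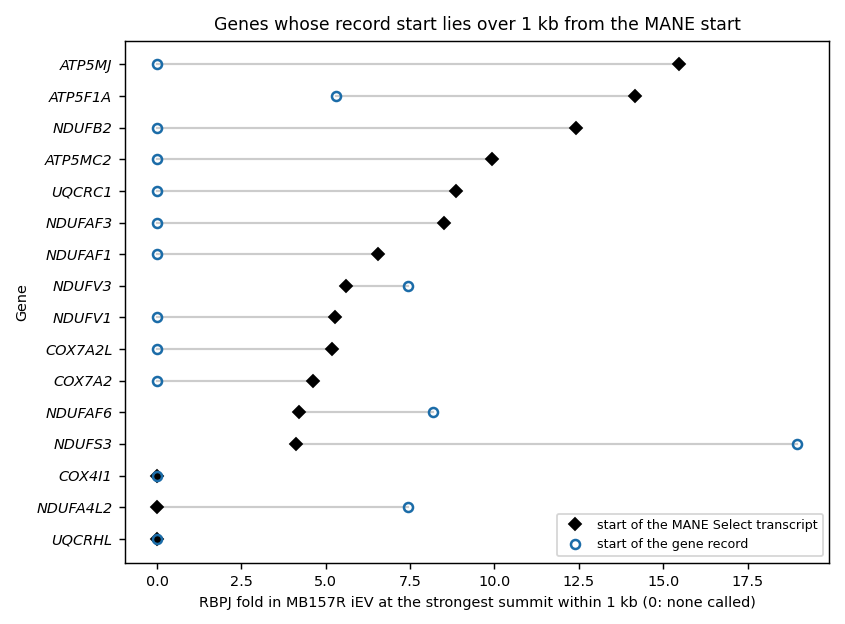
RBPJ fold in MB157R iEV (x axis, 0 where no summit was called) for OXPHOS genes (y axis) whose gene record starts over 1 kb from the MANE Select transcript; open circles mark the record start and diamonds the MANE start. ATP5MJ, ATP5F1A and NDUFB2 rise to 15.5, 14.2 and 12.4 at the MANE start, and NDUFS3 drops from 19.0 to 4.11.

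The first comparison asked how RBPJ differs between GSI-resistant and parental cells. With the lists as deposited, it was called at 25 members in MB157R iEV and not in MB157 iEV (26.9%, against 22.7% of all genes), and at 6 the other way round (6.45%, against 4.57%). The MB157R list held 46601 peaks and the MB157 list 25243. When each was cut to its 25243 peaks of highest −log10 q, the counts were 15 and 14 (against 14.2% and 9.96% of all genes), which left no excess of that size on the MB157R side. With a −log10 q of at least 5 in both lists they were 35 and 5 (against 28.1% and 3.41% of all genes). The excess thus depended on how the lists were made comparable, and the cause was not tested. The strongest of the 25 were NDUFS7, a core iron-sulfur subunit (7.58), COX8A (6.82), NDUFB4 (6.64), NDUFB3 (6.36) and ATP5PF, coupling factor 6 (6.04). The 6 were UQCRFS1 (6.75), COX6A2 (5.90), NDUFAF5 (4.93), UQCRH (4.17), NDUFB7 (3.78) and COX7A1 (3.30).

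At the 43 members called in both lists the fold was higher in MB157R iEV at 37. The median log2 ratio of fold was 0.48, against 0.44 for the 6665 genes called in both, 79.9% of which were higher in MB157R iEV. The members moved with genes at large. The largest rises in fold were ATP5F1C (log2 ratio 1.81) and NDUFA12, and the largest fall was NDUFA1 (−0.96).

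**Figure D4:**
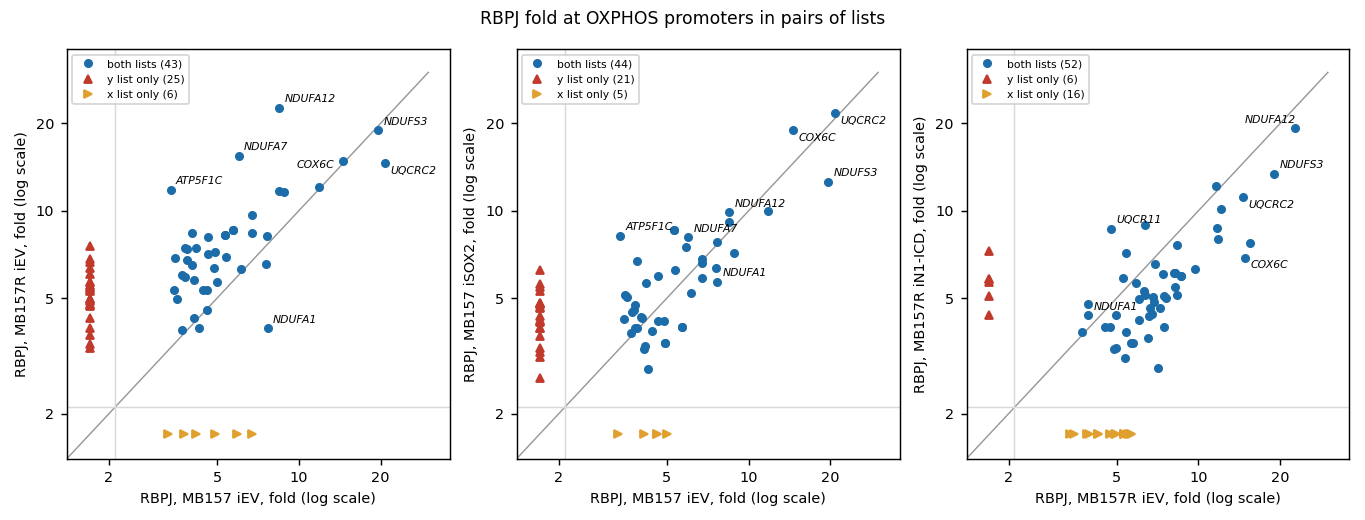
RBPJ fold of OXPHOS genes in 3 pairs of lists (log axes): MB157R iEV against MB157 iEV, MB157 iSOX2 against MB157 iEV, and MB157R iN1-ICD against MB157R iEV. Circles are genes called in both lists, triangles at the margins genes called in 1 list, and the line marks equal fold; 37 of 43 circles lie above it in the first panel and 8 of 52 in the third.

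The second comparison was SOX2 induction in parental cells, which shares the MB157 iEV list with the first. RBPJ was called at 21 members in iSOX2 and not in iEV (22.6%, against 16% of all genes) and at 5 the other way round (5.38%, against 3.59%). The iSOX2 list was the longer and the deeper of the pair. The strongest of the 21 were ATP5MC3, a further gene for subunit c (6.27), ATP5MG (5.60), ATP5PF (5.47), NDUFS6 (5.27) and NDUFB4 (4.81). The 5 were NDUFA10, NDUFS4, NDUFAF2, ATP5MK and COX7A1, with a fold of 3.30 to 4.99. At the 44 members called in both, the median log2 ratio of fold was 0.05, against 0.05 for all genes called in both.

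The third comparison was N1-ICD induction in resistant cells, which shares the MB157R iEV list with the first. RBPJ was called at 16 members in iEV and not in iN1-ICD (17.2%, against 15.6% of all genes) and at 6 the other way round (6.45%, against 2.53%). The iEV list was the longer of the pair (46601 peaks, against 37297) and slightly the deeper (1.82 fragments expected, against 1.75). The strongest of the 16 were NDUFA10, UQCRQ, NDUFAF8, ATP5MC3 and NDUFS4, at 5.31 to 5.67 in iEV. The 6 were COX7C (7.26), NDUFC1 (5.81), UQCRC1, a core subunit of complex III (5.81), NDUFB7 (5.70), NDUFAF3 (5.08) and ATP5MC2 (4.36). Of these, 4 had a summit in both MB157R lists at their MANE starts. The record starts of UQCRC1, NDUFAF3 and ATP5MC2 lie over 1 kb from it. That of NDUFC1 lies 74 bp from it, and its MB157R iEV summit, 1060 bp from the record start, was outside the window. At its MANE start NDUFC1 had an RBPJ fold of 7.17, 11.5, 9.83 and 5.81, so it was called in all 4 lists and was lower with N1-ICD.

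At 52 members called in both MB157R lists the fold was lower with N1-ICD at 44 and higher at 8. The median log2 ratio was −0.47, against −0.43 for the 8074 genes called in both. UQCR11 had the largest rise (4.76 to 8.66), on 22 and 23 fragments over a local background of 3.83 and 1.77. NDUFB9 had the largest fall, from 7.08 (35 fragments) to 2.87 (17 fragments).

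SOX2 in resistant cells was found at fewer OXPHOS promoters than RBPJ. In MB157R iEV it was called at 28 members (30.1%), against 21.8% of all genes and 29.1% of those with a CpG-rich promoter. Of the 71 members with a CpG-rich promoter it was called at 25 (35.2%). At MANE starts it was called at 35 (37.6%, against 22.9% of all genes). With N1-ICD it was called at 0 members (against 0.0751% of all genes), and that list held 323 peaks in all.

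NDUFB4 and NDUFB5, accessory subunits in the membrane arm of complex I, had the highest SOX2 fold, 10.6 and 9.66. They rested on 50 (37.1 to 65.9) and 41 (29.4 to 55.6) fragments, and their summits lay at −22 and −5 bp from the TSS. COX7B (6.76), NDUFS5 (6.08) and UQCRQ (5.88) followed. The start of NDUFB5 is 41 bp from that of MRPL47, a gene of the mitochondrial ribosome on the other strand, so the summit cannot be given to 1 of them. The SOX2 summits lay at a median of 58.5 bp from the TSS, against 217 bp for all genes called.

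HA-SOX2 in MB157 iSOX2 was called at 55 members (59.1%), against 34% of all genes and 45.4% of those with a CpG-rich promoter. Of the 71 members with a CpG-rich promoter it was called at 45 (63.4%). At MANE starts it was 59 (63.4%, against 35.3%). The HA control was called at 0 members (against 0.0802% of all genes) in a list of lower depth. Most of the HA-SOX2 summits were weak within their list. The median fold of 3.74 was at the 33.0th percentile of called genes, and 14 of 55 were above the median of the genes called in that list. When the HA-SOX2 list was cut from 108203 peaks to the 37963 of the SOX2 list, it was called at 3 members (3.23%, against 3.98% of all genes). The 3 were COX5A, NDUFS5 and NDUFAF5.

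COX5A had the highest HA-SOX2 fold, 9.57 (34 fragments, 23.5 to 47.5). NDUFS5 (8.57), NDUFA9 (7.32), NDUFAF5 (6.73) and COX8A (5.99) followed. The COX5A summit lay at −624 bp from the TSS, and an RBPJ summit of the same cells at −655 bp.

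**Figure D5:**
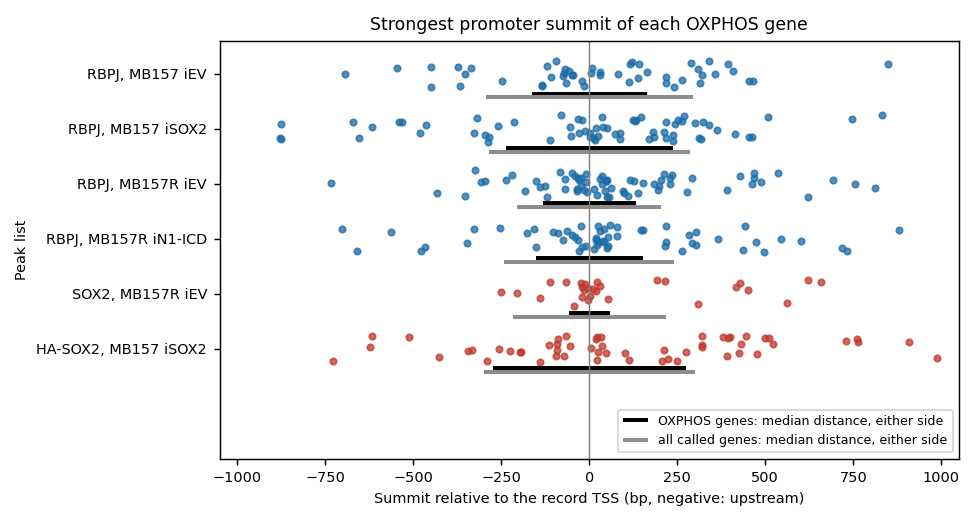
Position of the strongest promoter summit of each OXPHOS gene relative to the record TSS (x axis, bp, negative upstream) in 6 lists (y axis); points are genes, and horizontal lines span the median distance on either side for the members (black) and all called genes (grey). The SOX2 summits of MB157R iEV gather at the TSS (median 58.5 bp against 217 bp), and those of HA-SOX2 are spread more widely (275 bp against 300 bp).

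SOX2 and HA-SOX2 were called together at 25 members (26.9%, against 15.3% of all genes), that is 25 of the 28 with SOX2 (89.3%, against 70.3% of all genes with SOX2) and 25 of the 55 with HA-SOX2 (45.5%, against 45.1%). They came from different cells, so the order of the genes in the lists was compared by value only. NDUFB4 had a fold of 10.6 for SOX2 and 4.20 for HA-SOX2, NDUFB5 had 9.66 and 3.10, and NDUFA9 had 4.05 and 7.32.

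The question behind the pair of factors was whether SOX2 sits where RBPJ does. In MB157R iEV, RBPJ and SOX2 summits less than 500 bp apart were found at 25 promoters of the set (26.9%, against 17.8% of all genes), 25 of the 68 with RBPJ and 25 of the 28 with SOX2. These are 36.8% and 89.3%, near the 31.7% and 81.6% of all genes with RBPJ or with SOX2. The RBPJ and SOX2 lists of a cell line share their inputs. SOX2 was called without RBPJ at 2 members, NDUFAF3 and NDUFAF5 (2.15%, against 1.48%). In MB157 iSOX2, RBPJ and HA-SOX2 were that close at 38 promoters (40.9%, against 22.7% of all genes), 38 of 65 with RBPJ and 38 of 55 with HA-SOX2. These are 58.5% and 69.1%, against 45.1% and 66.8% of all genes with RBPJ or with HA-SOX2. The median separation was 129 bp for SOX2 and 199 bp for HA-SOX2 where both factors were called, against 142 and 198 bp over all genes.

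Both factors could be high at different members. UQCRC2, COX6C and NDUFA12 had no SOX2 summit at the promoter in MB157R iEV, while NDUFB5 had a SOX2 fold of 9.66 beside an RBPJ fold of 4.73 (19 fragments) there.

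Motif words were counted in the 300 bases from 250 before to 50 after the TSS, on both strands. GTGGGAA was in 12 promoters of the set (12.9%, against 6.38% of all promoters). The NRF1 core TGCGCA was in 20 (21.5%, against 9.47%), the ETS word CCGGAAG in 18 (19.4%, against 11.9%) and the YY1 word AAGATGGC in 6 (6.45%, against 3.05%). The SP1 word GGGCGG was in 47 (50.5%, against 52.4%), a SOX word in 19 (20.4%, against 21.3%) and the CREB word TGACGTCA in 2 (2.15%, against 2.28%). The SOX words changed sides with the choice of promoters. Among CpG-rich promoters they were in 22.5% of the members' and 14.5% of all, and at MANE starts in 14.0% and 18.4%. Among CpG-rich promoters the members' share was above that of all promoters for GTGGGAA (9.86% against 5.84%), TGCGCA (25.4% against 13.8%), CCGGAAG (23.9% against 17.5%) and AAGATGGC (7.04% against 4.08%), and below it for GGGCGG (59.2% against 75%) and TGACGTCA (2.82% against 3.39%). At MANE starts it was above for GTGGGAA (10.8% against 5.72%), TGCGCA (23.7% against 10.8%), CCGGAAG (25.8% against 14.1%), AAGATGGC (15.1% against 4.06%) and TGACGTCA (4.30% against 2.69%), and below for GGGCGG (60.2% against 61.3%). Matches of different words may share bases.

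Within 50 bp of the RBPJ summits of the set, GTGGGAA was found at 5 of 47, 9 of 63, 6 of 66 and 8 of 56 distinct summits (10.6%, 14.3%, 9.09% and 14.3%). Over all promoter summits of the 4 lists it was found at 9.36%, 8.28%, 7.44% and 8.74%. Most RBPJ summits of OXPHOS promoters thus had no GTGGGAA in the window. The NRF1 core was at 0%, 7.94%, 6.06% and 14.3% of the members' summits (against 3.61%, 3.52%, 4.79% and 4.43% of all promoter summits). The ETS word was at 2.13%, 6.35%, 10.6% and 7.14% (against 4.05%, 3.96%, 6.03% and 5.28%). The YY1 word was at 2.13%, 4.76%, 4.55% and 3.57% (against 0.859%, 0.796%, 1.297% and 1.05%). The SP1 and CREB words were below the share of all promoter summits in every list, and the SOX words in all but MB157 iSOX2. A SOX word was within 50 bp of 3 of 27 SOX2 summits (11.1%, against 23.1% of all promoter summits) and of 10 of 53 HA-SOX2 summits (18.9%, against 21.5%). At the same 27 SOX2 summits the ETS word was found at 5 (18.5%, against 6.29%). The YY1 word was at 3 (11.1%, against 1.08%), the NRF1 core at 4 (14.8%, against 3.96%) and GTGGGAA at 1 (3.70%, against 2.25%). The SP1 word was at 4 (14.8%, against 27.6%) and the CREB word at 0 (against 0.826%). At the 53 HA-SOX2 summits the ETS, YY1 and NRF1 words were at 3.77%, 5.66% and 3.77%, against 4.06%, 0.931% and 2.33%. GTGGGAA, the SP1 word and the CREB word were there at 3.77%, 22.6% and 0%, against 2.06%, 20.1% and 0.543%.

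Other genes of mitochondrial respiration were counted from lists drawn up with earlier results known. Of all protein-coding genes RBPJ was called at 38%, 50.4%, 56.1% and 43% in the 4 lists. Of those with a CpG-rich promoter it was called at 55.3%, 73.4%, 80.3% and 61.3%. RBPJ was called in the 4 lists at 5, 5, 6 and 5 of the 6 genes of complex II and cytochrome c, the members of the chain outside the symbol rule. It was called at 12, 15, 19 and 15 of 20 complex IV assembly factors and at 5, 9, 9 and 6 of 12 assembly and regulation genes of complexes III and V. Of 13 genes of the tricarboxylic acid cycle, which supplies NADH, it was called at 9, 11, 13 and 11, and of 10 genes of mitochondrial DNA expression at 9, 9, 10 and 10. Of 78 genes of the mitochondrial ribosome it was called at 47, 57, 69 and 54. Of 10 regulators of respiratory genes it was called at 5, 8, 7 and 6. SOX2 in MB157R iEV was called at 2 of 6, 9 of 20, 4 of 12, 5 of 13, 5 of 10, 29 of 78 and 4 of 10 genes of these lists in the same order. Of all genes SOX2 was called at 21.8%, and of those with a CpG-rich promoter at 29.1%. As in the OXPHOS set, MB157 iEV had the fewest or equally few RBPJ calls and MB157R iEV the most or equally many, except among the regulators, where MB157 iSOX2 had the most. Of the 4 RBPJ lists, MB157 iEV was also the shortest and MB157R iEV the longest.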

How the data were processed

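Per the labels and the study's methods, adapters had been trimmed, BWA had placed the read pairs on hg38, and the authors had run MACS2 for narrow peaks (FDR 0.05) on the pooled libraries of each group against the inputs. The versions of BWA and MACS2 are not given in the sources used here. In the 8 deposited lists each peak has a score, which was not used, and the authors' fold, a ratio of fragments at the summit to the local background with 1 added to each. The deposited columns also give −log10 p, −log10 q and, as other values, the position of the summit in bp. Peaks on chromosomes 1 to 22 and X were used.

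Fragments at each summit were recovered from the deposited fold and −log10 p. The whole number whose p lay nearest to the deposited one was taken, so that one was found for every peak by construction. In simulated lists every summit planted within 1 kb of a TSS was found. This checks the matching of summits to genes and not the calling of peaks. Genes were those of GENCODE 44, and positions are counted from 1. Promoters were the 1 kb on each side of the 5′ end of the gene record. A promoter was CpG-rich with at least 50% GC and an observed to expected CpG ratio of at least 0.6 over 500 bp on each side.

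The members, gene lists and alternatives were chosen with earlier results of these data known. Genes named were the 5 of highest fold in each list, the 5 of highest fold called in 1 list of a pair, those with no RBPJ summit and the isoforms with their partners; others were named after their values were seen. For 1 member no values are reported here, and it is left out of the plots that name genes. Alternatives were windows of 500 bp and 5 kb, all transcript starts, peak overlap, −log10 q of at least 5, lists of equal length, the set without readthrough genes and assembly factors, summits less than 100 bp apart and, MANE starts (the Ensembl canonical start for the 2 members without one), a choice made after the data had been seen. The work was done with Python 3.11.15, pandas 2.3.3, pysam 0.24.0, scipy 1.17.1, matplotlib 3.10.9 and numpy 2.4.6.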

Additional observations from a re-analysis of the deposited data

How the results depend on the processing

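Of 128 values recomputed under 9 alternatives, 116 stayed within 1.5-fold of the reported count or, for median percentiles, inside their interval. Some of the 116 could not have moved. Counts of 0 stay 0 under stricter settings, and the shortest RBPJ list and the shorter SOX list are unchanged at equal length. The 12 that moved further follow. With a −log10 q of at least 5, members with RBPJ in MB157 iEV numbered 29, with SOX2 in MB157R iEV 14, with HA-SOX2 22 and with RBPJ in all 4 lists 19, and close pairs of RBPJ with SOX2 numbered 10 and with HA-SOX2 7. With lists of equal length, HA-SOX2 was called at 3 members, RBPJ in MB157R iEV but not MB157 iEV at 15 and the reverse at 14, and RBPJ was close to HA-SOX2 at 2. With summits less than 100 bp apart, the close pairs were 13 and 16. Those settings keep fewer peaks or a smaller distance by construction. Windows of 500 bp and 5 kb, all transcript starts, peak overlap, the smaller set and MANE starts moved none of the recomputed counts by over 1.5-fold. The count of members with no RBPJ summit in any list was not among the 128 values. It was 13 at record starts and 6 at MANE starts. No paired analysis was possible because peaks had been called on pooled libraries. Summits of 10 to 20 fragments, common in this set, have wide counting intervals, and no replicate spread was available.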

Other observations

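A gene was given a head-to-head neighbor if the nearest other protein-coding start lay within 1 kb upstream on the opposite strand. Genes with such a start farther off than another start were not counted. By this measure it was more common in the OXPHOS set than among genes at large, at 20 members (21.5%) against 7.98% of all genes. In total 41 members had another protein-coding TSS within 1 kb, so that a summit there may belong to either gene. RBPJ was called at 12, 14, 17 and 12 of the 20 members in the 4 lists, which are 60%, 70%, 85% and 60%. Of the 1592 protein-coding genes with such a neighbor it was called at 998, 1276, 1400 and 1127 (62.7%, 80.2%, 87.9% and 70.8%). Among the 20 were NDUFB5 with MRPL47, NDUFS6 with MRPL36, and ATP5F1C with KIN, a DNA-binding protein. HA-SOX2 was called at 11 of the 20 members (55%) and at 866 of the 1592 genes (54.4%).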
